A study of Mus musculus with 23 samples.

Results

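The comparison described here was that of busulfan-injected mice given A100-FMT with busulfan-injected mice given saline (Sa), in the second of the 2 sample sets of the series. Its members were chosen by label alone: the 3 A100-FMT and the 3 Sa small intestine libraries of set 2, 6 of 23 libraries in all. The labels name the groups by code only, and the treatments are those the study's methods give for them. All mice were ICR males, an outbred stock, and all, the Sa mice included, had received a single injection of busulfan, a DNA-alkylating anticancer drug that damages the intestinal lining, at 40 mg/kg and 3 weeks of age. From the next day Sa mice were gavaged with saline. A100-FMT mice were gavaged with a suspension of small intestinal luminal content (fecal microbiota transplantation, FMT) taken from donor mice dosed with alginate oligosaccharide (AOS) at 100 mg/kg for 3 weeks. Con-FMT and A10-FMT mice, which also enter the fit to estimate the spread between libraries, received content from donors dosed with water or with AOS at 10 mg/kg. The content of each donor group was pooled, so the A100-FMT mice share 1 inoculum and the donors were not replicated. The methods give 1 schedule, with daily gavage for 1 week and collection at 5 weeks of age, and what separates set 1 from set 2 is not given in the sources used here. No mice without busulfan were among the libraries, so the level of any gene in the undamaged intestine is not known from these data.

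The small intestine is lined by a single layer of epithelial cells that divide in crypts and mature as they move up the villi. Mature absorptive cells (enterocytes) carry a brush border of actin-filled microvilli, studded with peptidases and disaccharidases that finish digestion, and with transporters for amino acids, sugars, phosphate and sodium; they also pack dietary fat into chylomicrons on apolipoprotein B. Crypt cells divide, are kept immature by signals such as Notch, and make ribosomes at a high rate. Paneth cells at the crypt base release antimicrobial peptides, and interferon-stimulated genes form the antiviral arm of epithelial defence.

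The libraries carried the defining genes of small intestinal epithelium. The deposited values are FPKM, read fragments scaled to transcript length and to the size of the library. All 18 small intestine markers on the list passed the filter on low values, which was an average FPKM of 1 or more across the 12 libraries of set 2. Villin (Vil1), the actin-bundling protein of microvilli, lay between 592.17 and 739.97 FPKM in the 6 libraries, and the epithelial adhesion gene Epcam between 963.25 and 1049.64 FPKM. Most of these markers were lower in A100-FMT. Of the 18, 14 had a change below 0, 10 were lower without overlap, 1 was higher without overlap and Vil1, Dpp4 and Cdh17 were called lower, with a list median of -0.208 on the log2 scale. Over all genes tested, 10.1% were lower and 18.4% higher without overlap and 1.31% were called lower, as defined in the next paragraph. Of 20 smooth muscle markers, 18 were in the table and 7 passed the filter, with a sum of 96.7 to 109 FPKM in the 6 libraries, overlapping between the groups, and with Mylk the most abundant. The contractile genes Acta2 and Myh11 were at 0 to 0.04 FPKM and Des was at 0 to 0.02 FPKM, 3 genes picked after their values were seen. The fibroblast collagen gene Col1a1 was at 0.02 to 0.11 FPKM. The T cell receptor gene Cd3e was at 0.66 to 2.27 FPKM. The summed level of the T cell and intraepithelial lymphocyte markers (28 listed, 24 in the table, 7 past the filter) was 105, 45.1 and 107 FPKM in A100-FMT replicates 1 to 3 and 63.6, 65.1 and 114 FPKM in the Sa replicates. Gzma was the most abundant of them, and the groups overlapped. The summed level of the 9 erythroid genes did not overlap between the groups. They summed to 13.9, 6.34 and 13.4 FPKM in A100-FMT and to 4.5, 1.44 and 1.31 FPKM in Sa. Hba-a1 was the most abundant, 2 of the 9 passed the filter, 0 were called (limma, 2 at an unadjusted p under 0.05), 1 was higher without overlap and 1 was at 0 in all 6 libraries. The part of blood in the results was not tested. Because these are bulk samples, fewer cells of a type and less RNA per cell cannot be told apart in any result below.

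Of 11351 genes tested, 399 differed between A100-FMT and Sa (limma on log2(FPKM + 1), Benjamini-Hochberg adjusted p under 0.05), and such genes are called below. Of these, 250 were higher in A100-FMT (2.2% of the genes tested) and 149 were lower (1.31%), so 62.7% of the calls were higher. Scaling moved this split. Quantile normalization called 376 genes, 153 of them higher, trimmed-mean scaling called 395, 178 of them higher. Among genes with a known length 448 were called, 285 of them higher. Removal of the trend with transcript length and GC content, which needs a known length, called 366, 157 of them higher. Across all genes the shift was small. The median change over all genes tested was 0.029 on the log2 scale, with 58.2% of genes above 0. Groups that do not overlap, meaning that every A100-FMT library lay above or below every Sa library, were found for 2088 genes higher in A100-FMT (18.4%) and 1142 lower (10.1%). Each count of members without overlap below is to be read against these shares. Every one of the 399 called genes was free of overlap.

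**Figure D1:**
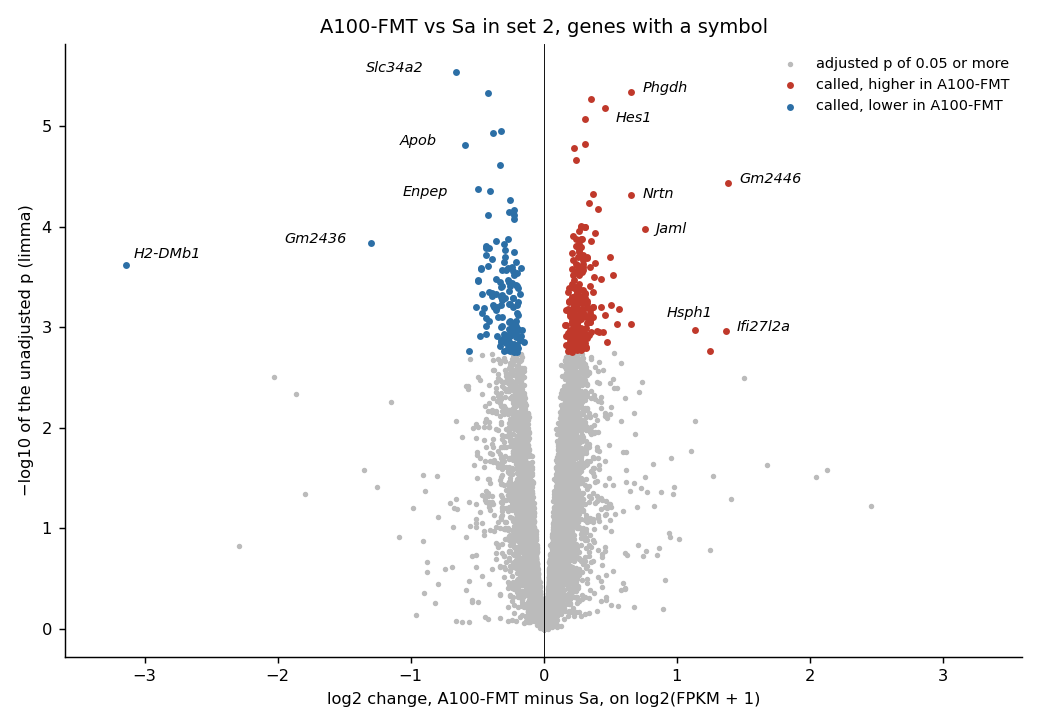
Each point is 1 of 10621 genes with a symbol; the x axis gives the log2 change (A100-FMT minus Sa, on log2(FPKM + 1)), the y axis −log10 of the unadjusted limma p, red and blue mark genes called higher and lower, and 2 genes beyond ±3.6 on the x axis are not drawn. Slc34a2, Phgdh and Hes1 sit near the top with changes under 1 on the log2 scale, while H2-DMb1 stands alone at -3.14.

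The number of calls rested on single libraries. Without A100-FMT replicate 2 it was 1, without A100-FMT replicate 3 it was 9, and without Sa replicates 1, 2 and 3 it was 55, 2 and 6, while without A100-FMT replicate 1 it was 472. All 399 called genes kept their direction and an unadjusted p under 0.05 (limma) in each of these 6 fits. They were chosen by their p in the fit of 12, which shares most libraries with these fits, so nothing is read from this. Fitting the 6 libraries alone, without the spread seen in the other 6 libraries of set 2, called 9 genes. That fit had 2512 genes at an unadjusted p under 0.05 (limma), and the fit of 12 had 2691. Whether each library came from a separate mouse is not given in the sources used here, so the p-values measure the spread between these libraries, which may be technical.

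**Figure D2:**
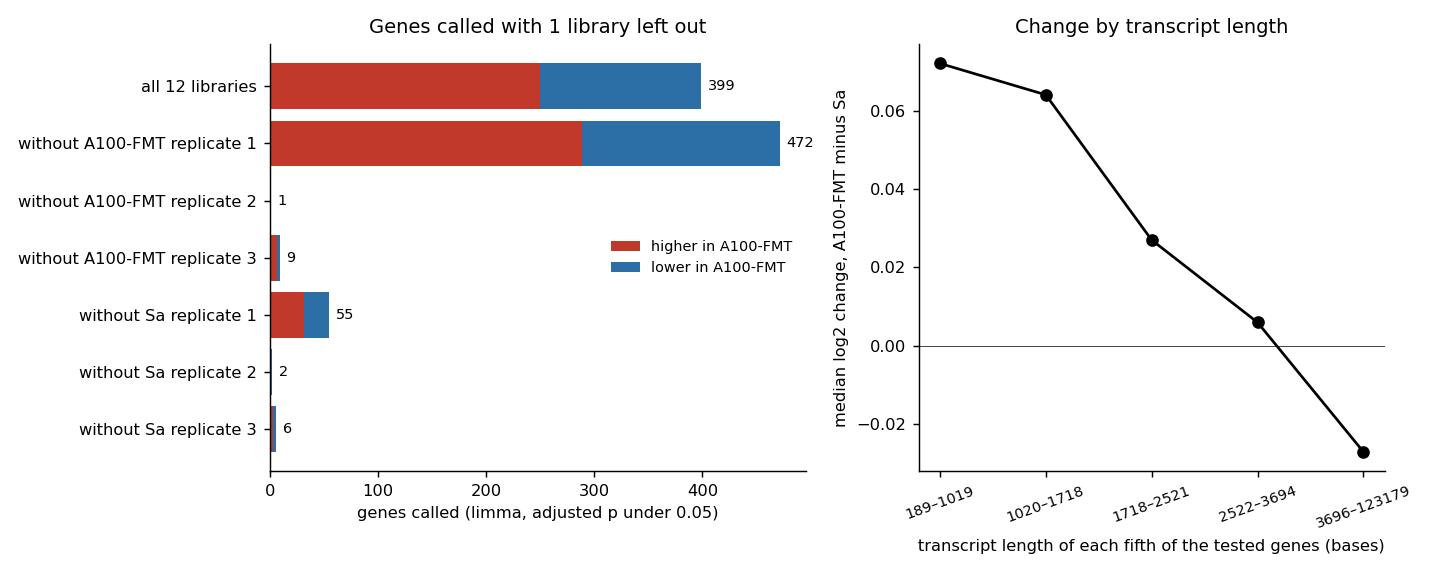
Left, bars give the number of genes called between A100-FMT and Sa (red higher, blue lower in A100-FMT) with all 12 libraries and with 1 library left out in turn, from 472 without A100-FMT replicate 1 down to 1 without A100-FMT replicate 2. Right, the median log2 change (A100-FMT minus Sa) in 5 equal classes of the tested genes by transcript length in bases falls from 0.072 in the shortest class to -0.027 in the longest.

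Most tested enzymes of the brush border had a change below 0 in A100-FMT, and 5 passed. Of 28 disaccharidases, peptidases and phosphatases listed, 27 were in the table and 26 passed the filter, 22 had a change below 0, 16 were lower without overlap and 5 were called, all lower. The median change was -0.367 on the log2 scale against 0.029 over all genes. Enpep (NCBI gene 13809, chr3:129269177-129332749 on GRCm38), the glutamyl aminopeptidase, measured 203.15, 184.52 and 203.46 FPKM in A100-FMT replicates 1 to 3 and 257.39, 295.55 and 276.83 FPKM in Sa replicates 1 to 3. The highest A100-FMT library thus lay well under the lowest Sa library, a difference of -0.49 ± 0.07 on the log2 scale (SE, n = 3 per group, adjusted p = 0.0274) or 28.6% less. Anpep, aminopeptidase N and the most abundant gene of the list, stood at 1332.05, 1334.34 and 1245.88 FPKM in A100-FMT against 1612.32, 1750.33 and 1696.36 FPKM in Sa, with no overlap (-0.37 ± 0.08, adjusted p = 0.0368). Dpp4, the dipeptidyl peptidase that cuts incretins and proline-containing peptides, fell to 57.4 ± 3.15 from 79.8 ± 8.9 FPKM (mean ± SD, n = 3, adjusted p = 0.0368). The membrane-bound X-prolyl aminopeptidase Xpnpep2 fell to 28.3 ± 2.94 from 40.8 ± 5.58 FPKM (adjusted p = 0.0368). Asah2, the neutral ceramidase that digests dietary sphingolipid, was at 25.2 ± 2.94 FPKM in A100-FMT and 37.5 ± 4.08 FPKM in Sa, with an adjusted p of 0.0499 that sits at the threshold and became 0.0574 with the length and GC trend removed. Intestinal alkaline phosphatase, Alpi, at 279 ± 28.7 against 374 ± 31.4 FPKM (adjusted p = 0.0815), and the metalloprotease Mep1b, at 224 ± 19 against 270 ± 5.22 FPKM (adjusted p = 0.0827), did not pass.

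**Figure D3:**
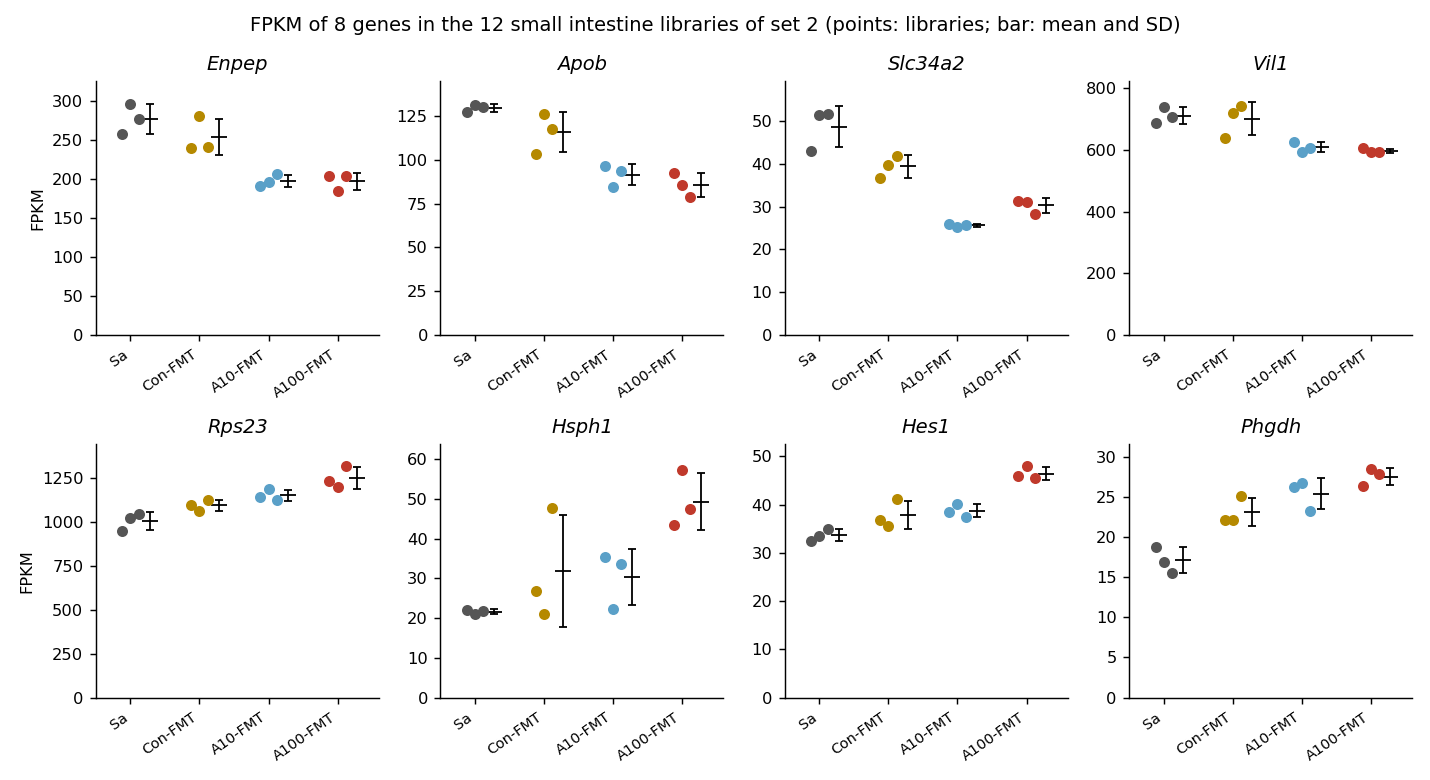
FPKM (y axis, starting at 0) of 8 genes in the 12 libraries of set 2; each point is 1 library and the bar beside each group is its mean and SD (n = 3). Enpep, Apob, Slc34a2 and Vil1 are lower in all 3 A100-FMT libraries than in any Sa library, and Rps23, Hsph1, Hes1 and Phgdh are higher in all 3.

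Most structural genes of the microvillus also had a change below 0, with a smaller median change. Of 24 listed, 23 were in the table and 22 passed the filter, 21 had a change below 0, 12 were lower without overlap and 4 were called, all lower (median change -0.152). Vil1 (gene 22349, chr1:74409384-74435560) measured 605.59, 592.17 and 593.42 FPKM in A100-FMT and 687.84, 739.97 and 707.02 FPKM in Sa. The A100-FMT libraries were close to one another and all below the Sa range, a fall of 16% (-0.25 ± 0.05, adjusted p = 0.0401). Pls1, plastin, which bundles the same actin cores, was 161 ± 9.29 against 218 ± 8.74 FPKM (-0.43 ± 0.08, adjusted p = 0.0346). The actin-capping protein Eps8 (28.7 ± 1.18 against 34.1 ± 0.749 FPKM, adjusted p = 0.0424) and the actin nucleator Cobl (13.8 ± 0.833 against 19 ± 1.39 FPKM, adjusted p = 0.0438) also fell. Beta-actin, Actb, had a change of -0.01 ± 0.05 and the protocadherin Cdhr5, a link between microvilli, one of -0.07 ± 0.09, and neither passed (adjusted p = 0.938 and 0.638). The sign for Actb turned without A100-FMT replicate 3 or Sa replicate 2.

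Among genes of dietary fat uptake, Apob, Mttp and Sar1b fell, and the most abundant members did not pass. Apob (gene 238055, chr12:7977629-8016839), the structural protein of the chylomicron, read 92.80, 85.55 and 79.10 FPKM in A100-FMT and 127.23, 131.44 and 130.18 FPKM in Sa. The Sa libraries were nearly identical and every A100-FMT library lay below all of them (-0.59 ± 0.08, adjusted p = 0.0153). Mttp, which loads lipid onto apolipoprotein B, was 357 ± 34.2 against 472 ± 15.2 FPKM (-0.41 ± 0.08, adjusted p = 0.0368). Sar1b, the GTPase of the coat that carries chylomicrons out of the endoplasmic reticulum, was 122 ± 5.59 against 139 ± 3.4 FPKM (-0.19 ± 0.04, adjusted p = 0.043). The fatty acid binding proteins Fabp1 (-0.10 ± 0.14, adjusted p = 0.683) and Fabp2 (-0.16 ± 0.13, adjusted p = 0.469) and the apolipoprotein Apoa1 (0.21 ± 0.20, adjusted p = 0.563) did not pass, and their libraries overlapped between groups. In all, 29 of 30 listed genes passed the filter, 19 had a change below 0, 11 were lower and 1 was higher without overlap, and the 3 named were the called ones (median -0.163).

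Transporters of amino acids showed the same direction in most members. All 19 listed genes were tested, 16 had a change below 0, 13 were lower without overlap and 5 were called, all lower (median -0.224). The largest change was that of Slc43a2, a basolateral carrier of neutral amino acids, at 48.8 ± 2.46 against 69.2 ± 6.82 FPKM (-0.49 ± 0.09, adjusted p = 0.0366). The aromatic amino acid carrier Slc16a10 stood at 22.5 ± 2.02 against 31.1 ± 2.19 FPKM (-0.45 ± 0.09, adjusted p = 0.0369). Slc7a9, the apical carrier of cystine and dibasic amino acids, was at 92.4 ± 4.26 against 119 ± 6.54 FPKM (adjusted p = 0.0369). Its basolateral counterpart Slc7a7 was at 69.1 ± 1.24 against 83.5 ± 5.76 FPKM (adjusted p = 0.0467), and Clrn3 also passed (-0.22 ± 0.05, adjusted p = 0.0499). Clrn3 is on the list but encodes clarin 3, a membrane protein that is not an amino acid transporter, and with the length and GC trend removed it was not called (adjusted p = 0.0810). Slc3a2, the heavy chain partner of several of these carriers, did not pass (-0.11 ± 0.06, adjusted p = 0.251).

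Among ion and water transport genes, 27 of 32 listed passed the filter, 21 had a change below 0, 13 were lower without overlap and 5 were called, all lower (median -0.110). Slc34a2 (gene 20531, chr5:53049353-53071664), the sodium-phosphate cotransporter of the brush border, had the smallest p of all genes. Its levels were 31.45, 31.22 and 28.30 FPKM in A100-FMT and 43.16, 51.51 and 51.60 FPKM in Sa, with no overlap and a fall of 36.9% (-0.66 ± 0.07, adjusted p = 0.0122). The sodium-proton exchanger Slc9a3, which takes up sodium at the same membrane, was 50.3 ± 7.08 against 70.4 ± 8.18 FPKM (-0.48 ± 0.11, adjusted p = 0.0445). Atp1b1, the beta subunit of the sodium pump that drives these carriers, was 472 ± 5.77 against 593 ± 19.6 FPKM (-0.33 ± 0.05, adjusted p = 0.0187). Gucy2c, the guanylate cyclase receptor for guanylin, fell by 12.9% (adjusted p = 0.0381) and Clca4b, of the calcium-activated chloride channel regulator family, by 20.8% (adjusted p = 0.0391, and 0.0575 with the length and GC trend removed). Guca2a, which encodes guanylin, had a change of 0.13 ± 0.11 (adjusted p = 0.501).

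Most cell junction genes had a change below 0, and 1 was called lower in each list, beside 1.31% of all genes called lower. Of 23 tested tight junction and claudin genes (31 listed), 19 had a change below 0, 5 were lower and 0 higher without overlap and Cldn12 was called, at 14.5 ± 0.602 against 17 ± 0.586 FPKM (-0.22 ± 0.04, adjusted p = 0.0351). F11r (adjusted p = 0.0694), Marveld2 (adjusted p = 0.0752) and the abundant claudins Cldn3, Cldn7 and Cldn15 (adjusted p = 0.61, 0.29 and 0.71) did not pass. The small positive changes of Cldn3 (0.06 ± 0.07) and Cldn7 (0.09 ± 0.05) turned negative under length and GC adjustment and under quantile normalization, respectively. Of 23 tested adherens junction, desmosome and gap junction genes (25 listed), 21 had a change below 0, 6 were lower and 0 higher without overlap and Cdh17, the intestinal cadherin, was called, at 455.95, 419.40 and 447.01 FPKM against 528.77, 534.88 and 532.54 FPKM (-0.27 ± 0.05, adjusted p = 0.0346). Nectin2 (-0.19 ± 0.05), Dsg2 (-0.23 ± 0.06) and Ctnnb1 (-0.09 ± 0.04) had adjusted p of 0.0597, 0.0636 and 0.202. With the length and GC trend removed, Cdh17, Nectin2 and Dsg2 were called. The medians of the lists were -0.075 and -0.074.

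A list was made of the 11 genes whose proteins were also assayed in the same treatment groups. Of these, 10 passed the filter, 3 with a change above 0 and 7 with a change below 0, and not every one is described here. Vil1 was the called one and was lower in A100-FMT. Sox4, a transcription factor of crypt progenitors, was 10.95, 12.23 and 9.99 FPKM in A100-FMT and 8.59, 7.51 and 7.33 FPKM in Sa, higher in every library (0.45 ± 0.12, adjusted p = 0.0581). It passed with the length and GC trend removed (adjusted p = 0.0473). For E-cadherin, Cdh1, the change was -0.14 ± 0.05 (adjusted p = 0.112). It was for the catenin Ctnnd1 -0.12 ± 0.07, for ZO-1, Tjp1, -0.14 ± 0.08, for occludin, Ocln, -0.10 ± 0.06, and for the survival gene Bcl2l1 -0.09 ± 0.06 (adjusted p = 0.285, 0.342, 0.349 and 0.413). Gata4 and Klf7 had changes of 0.01 ± 0.08 and -0.06 ± 0.12 (adjusted p = 0.963 and 0.787), each with a sign that turned in other settings. Gja4, the connexin of the group, was at 0.02 to 0.11 FPKM and was not tested.

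Genes of the ribosome had more called members than any other list. All 72 listed cytosolic ribosomal protein genes were tested, 69 had a change above 0, 59 were higher and 1 was lower without overlap, and 26 were called, all higher (36.1% of the list against 2.2% of all genes). Rps23 (gene 66475, chr13:90923122-90924732), of the small subunit, measured 1233.49, 1196.27 and 1317.98 FPKM in A100-FMT and 945.94, 1023.72 and 1045.78 FPKM in Sa, all 3 A100-FMT libraries above the Sa range (0.31 ± 0.05, adjusted p = 0.0346). Rpl4, of the large subunit, was at 1030.50, 1008.08 and 1036.88 FPKM against 900.85, 901.43 and 884.53 FPKM, with a gap between the groups wider than the range within either (0.19 ± 0.04, adjusted p = 0.0368). Rpl12 rose by 20.3%, Rps20 by 25.2%, the stalk proteins Rplp0 and Rplp1 by 15.1% and 22.6%. Among the other called members were Rpl6, Rpl7, Rpl8, Rpl13, Rpl17, Rpl27a, Rpl32, Rpl35a, Rps3, Rps3a1, Rps4x, Rps10, Rps15, Rps15a, Rps16, Rps21 and Rps24. Rpl28, at 2300 ± 95.8 against 2070 ± 122 FPKM, and Rps12 did not pass (adjusted p = 0.104 and 0.0681). The median change was 0.232 on the log2 scale, and it stayed above 0 in each scaling tried, at 0.105 with quantile normalization, 0.207 with trimmed-mean scaling and 0.167 with the length and GC trend removed, where 8 members were called. Ribosomal protein genes have many near-identical pseudogene copies, and how shared reads were counted is not given in the sources used here.

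Transcript length moved with this result. The median length was 713 bases for the ribosomal protein list, 1350 bases for genes called higher, 3067 bases for genes called lower and 2091 bases for all genes tested. In 5 equal classes of length the median change ran 0.072, 0.064, 0.027, 0.006 and -0.027 from the shortest to the longest genes. Within libraries, the rank correlation across genes of the deviation from the 12-library mean with length, given as a description, was 0.05, -0.28 and -0.23 in A100-FMT and 0.25, 0.18 and 0.04 in Sa. The part of RNA integrity or library preparation in the result was not tested.

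For genes of the respiratory chain the counts of higher members lay near the shares over all genes. Of all genes tested, 2.2% were called higher and 18.4% were higher without overlap. Of 70 tested nuclear genes of the respiratory chain, 53 had a change above 0, 12 were higher and 1 was lower without overlap, and 2 were called, both higher. The median of 0.057 became -0.002 with the length and GC trend removed and 0.005 with quantile normalization. With 1 library left out it ran from 0.023 (without A100-FMT replicate 3) to 0.107 (without A100-FMT replicate 1). The called genes were Ndufs7, a complex I subunit, at 232 ± 4.9 against 204 ± 6.7 FPKM (adjusted p = 0.0368), and Uqcrq, of complex III, at 226 ± 10.6 against 191 ± 3.29 FPKM (adjusted p = 0.0368). With the length and GC trend removed neither was called (adjusted p = 0.0781 and 0.0661). Ndufs8 missed the threshold (0.20 ± 0.06, adjusted p = 0.0737). The most abundant members, Atp5b, Cox6a1 and Cox4i1, had changes of 0.03 ± 0.03, 0.07 ± 0.07 and 0.03 ± 0.06 (adjusted p = 0.65, 0.595 and 0.826), whose sign turned under quantile normalization and under length and GC adjustment.

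**Figure D4:**
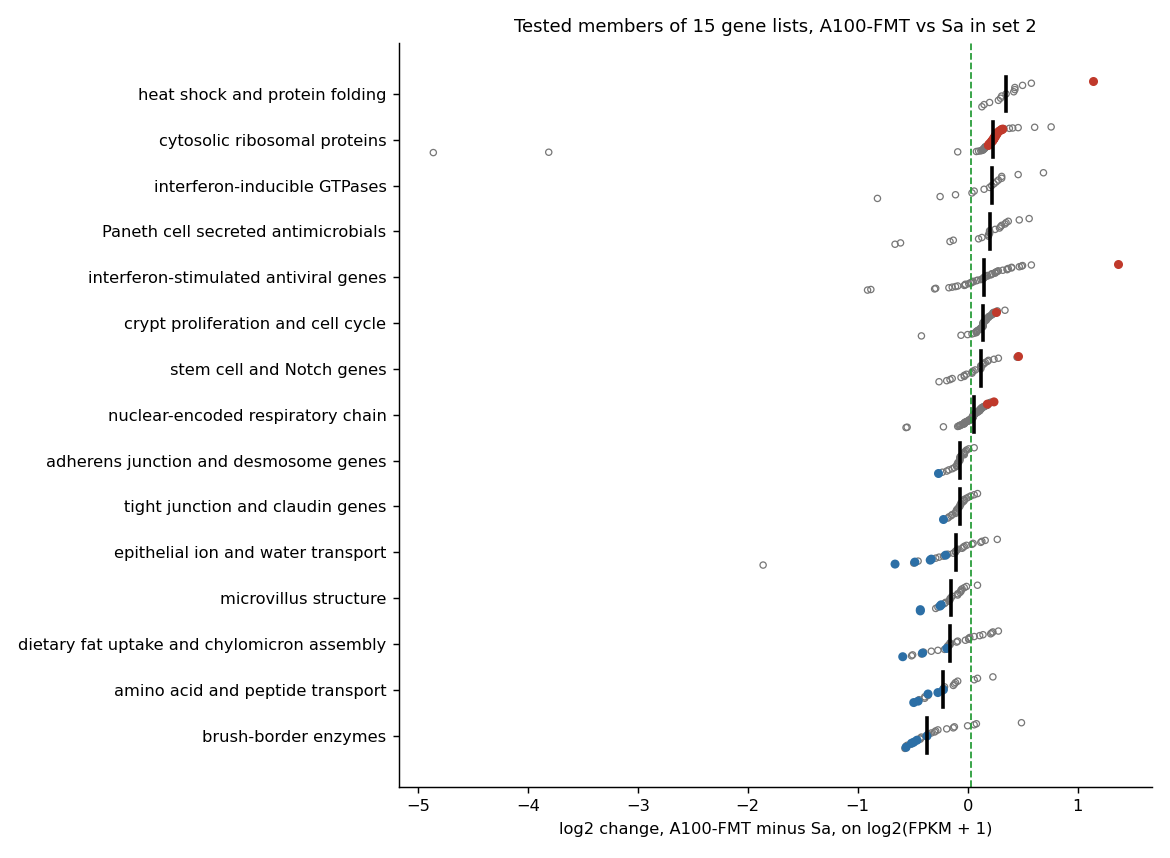
Each circle is a tested member of 1 of 15 gene lists, placed by its log2 change (A100-FMT minus Sa, on log2(FPKM + 1)); filled red and blue circles are called, black bars are list medians and the green dashed line is the median of all genes tested, 0.029. Heat shock and ribosomal protein medians (0.355 and 0.232) lie farthest to the right and the brush-border enzyme median (-0.367) farthest to the left.

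Heat shock and protein folding genes were higher in A100-FMT in every tested member. These are chaperones that fold new proteins and refold damaged ones. Of 18 listed, 17 were in the table and 13 passed the filter, all 13 had a change above 0 and 12 were higher without overlap, with a median of 0.355, but 1, Hsph1, was called. Hsph1 (gene 15505, chr5:149616843-149636498), the large partner that recharges the 70 kDa heat shock proteins, measured 43.43, 57.13 and 47.33 FPKM in A100-FMT and 22.07, 20.90 and 21.87 FPKM in Sa. The Sa libraries were nearly alike and all A100-FMT libraries lay far above them, a change of 1.14 ± 0.26 on the log2 scale (adjusted p = 0.043). Con-FMT libraries were at 26.74, 20.90 and 47.65 FPKM and A10-FMT libraries at 35.28, 22.21 and 33.50 FPKM. Hspa8, the constitutive 70 kDa chaperone, was 581.13, 789.67 and 790.19 FPKM against 401.79, 503.09 and 531.48 FPKM, higher in every library but short of the threshold (0.58 ± 0.15, adjusted p = 0.0548). Chordc1, a cochaperone of the 90 kDa family, was 32.5 ± 1.86 against 24.1 ± 0.18 FPKM (adjusted p = 0.054). Hsp90ab1 (0.28 ± 0.09, adjusted p = 0.0954) and the mitochondrial chaperonin Hspd1 (0.20 ± 0.08, adjusted p = 0.165) had smaller changes.

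Heat shock genes are classically switched on through heat shock elements, runs of the unit NGAAN in alternating orientation, and their letters were looked up in the promoters because the members moved together. A pair of facing units, GAANNTTC or TTCNNGAA (each its own reverse complement, so both strands are read at once), was present in the 250 bases before a RefSeq start (GRCm38.p6) in 5 of the 10 tested heat shock genes with a promoter entry. This is 50%, against 14.5% of 27025 genes in the table and 12.2% of the tested genes. As heat shock genes are known for these elements, nothing about A100-FMT or Sa is read from this share. A run of at least 3 units was found in 2 of the 10, Hspd1 and Hspe1, which share the region between their starts, against 0.514% of all genes. The 30 bases around each match are given 5′ to 3′ on the gene's strand, with all matched pairs in capitals. Overlapping pairs make 1 longer run in Hspe1. Hspd1 also holds a match, the same stretch as in Hspe1 read on the other strand, and it is not printed again. Dnaja1, Fkbp4 and Hspe1 were chosen because they hold a match.
Hsph1, chr5:149636351-149636380, minus strand: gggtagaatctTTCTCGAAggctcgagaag
Dnaja1, chr4:40722333-40722362, plus strand: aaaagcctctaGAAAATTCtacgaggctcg
Fkbp4, chr6:128438789-128438818, minus strand: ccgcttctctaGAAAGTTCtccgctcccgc
Hspe1, chr1:55088053-55088082, plus strand: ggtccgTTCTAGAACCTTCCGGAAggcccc
The match began 33 bases before the nearer of 2 starts in Hsph1, 124 in Dnaja1, 151 in Fkbp4 and 89 in Hspe1. In the libraries these genes had changes of 1.14 for Hsph1, 0.50 ± 0.14 for Dnaja1 (adjusted p = 0.0634), 0.43 ± 0.13 for Fkbp4 (adjusted p = 0.075) and 0.31 ± 0.08 for Hspe1 (adjusted p = 0.0626). The smaller change of Hspd1, which also holds a match, and that of Chordc1, which holds none, are given above. Whether members with and without a match differ in change was not tested. A match is a stretch of letters and not a measured site.

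Among crypt genes 1 was called higher in each of 2 lists, beside 2.2% of all genes called higher. Of 41 listed genes of proliferation and the cell cycle, the 40 in the table were tested, 37 had a change above 0, 17 were higher and 0 were lower without overlap, and 1 was called (median 0.144). It was Mcm2, a subunit of the replicative helicase, at 28.67, 25.22 and 26.99 FPKM in A100-FMT and 23.35, 22.51 and 21.08 FPKM in Sa, a narrow gap with no overlap (0.26 ± 0.06, adjusted p = 0.0402). Its partner Mcm3 (0.27 ± 0.07, adjusted p = 0.0687), the mitotic ubiquitin carrier Ube2c (0.23 ± 0.07, adjusted p = 0.0709) and the abundant Tuba1b and H2az1 (adjusted p = 0.137 and 0.32) did not pass. Of 25 tested stem cell and Notch genes (28 listed), 17 had a change above 0, 5 were higher and 1 was lower without overlap, and Hes1 was called (median 0.118, -0.004 without A100-FMT replicate 1 and 0.033 without Sa replicate 3). Hes1 (gene 15205, chr16:30065357-30067796), the repressor that Notch induces, was 45.82, 47.93 and 45.52 FPKM in A100-FMT and 32.41, 33.51 and 34.88 FPKM in Sa, with a gap between the groups wider than the range within either (0.46 ± 0.06, adjusted p = 0.0124). The Notch ligand Dll4 (-0.26 ± 0.09, adjusted p = 0.097), Hopx (0.28 ± 0.09, adjusted p = 0.103), the stem cell gene Olfm4 (0.14 ± 0.12, adjusted p = 0.493) and Slc12a2 (-0.03 ± 0.12, adjusted p = 0.919, of turning sign) did not pass.

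Calls among immune genes are to be read against 2.2% of all genes called higher and 1.31% called lower. Of 7 tested MHC class II genes, 6 had a change below 0, 2 were lower without overlap and H2-DMb1 was called lower (median -0.293). In the immune lists not described further limma called 0. Their medians were -0.139 for microbiota-responsive defence, -0.065 for MHC class I and peptide loading, -0.031 for chemokines, -0.008 for NOD-like receptors and 0.216 for the Schlafen family. Of 48 interferon-stimulated antiviral genes listed, the 45 in the table were tested, 34 had a change above 0, 14 were higher and 5 lower without overlap, and 1 was called (median 0.154). It was Ifi27l2a, at 110.89, 134.34 and 164.17 FPKM in A100-FMT and 72.80, 38.63 and 49.02 FPKM in Sa (1.37 ± 0.31, adjusted p = 0.0431). The libraries varied within both groups, yet the ranges lay apart. Oas1a, a sensor of double-stranded RNA, was higher in every library (0.36 ± 0.09, adjusted p = 0.0521), as was Ifitm3 (0.32 ± 0.10, adjusted p = 0.0954). Herc6 was lower in every library (-0.29 ± 0.09, adjusted p = 0.0794), and the abundant Psmb10 and Lgals3bp did not pass (adjusted p = 0.244 and 0.893). Of 15 tested interferon-inducible GTPases (20 listed) none was called, with 6 higher without overlap and a median of 0.225. By limma 6 of the 15 had an unadjusted p under 0.05, beside 2691 of the 11351 genes tested. Among the 6 were Gbp3 (0.31 ± 0.09), Gbp7 (0.24 ± 0.08), Tgtp1 (0.69 ± 0.23) and Irgm1 (0.20 ± 0.07), with adjusted p of 0.0801, 0.0969, 0.099 and 0.132. Igtp and Gbp6 had changes of -0.11 ± 0.14 and 0.06 ± 0.08 (adjusted p = 0.677 and 0.663), and the sign for Gbp6 turned with weights for library quality. Of 20 tested Paneth cell antimicrobial genes (27 listed) none was called, 1 was higher without overlap, and 4 had an unadjusted p under 0.05, Defa17, Defa24, Defa26 and Mptx1 (adjusted p = 0.134, 0.207, 0.198 and 0.198). The list mean differed from library to library as much within groups as between them, at 8.03, 9.33 and 8.13 on log2(FPKM + 1) in A100-FMT and 9.36, 8.22 and 7.48 in Sa. The most abundant, Defa31, was at 4285.70 to 7288.74 FPKM in A100-FMT and 4556.46 to 5604.48 FPKM in Sa. Defensin genes are near-identical copies and their separate levels are uncertain.

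**Figure D5:**
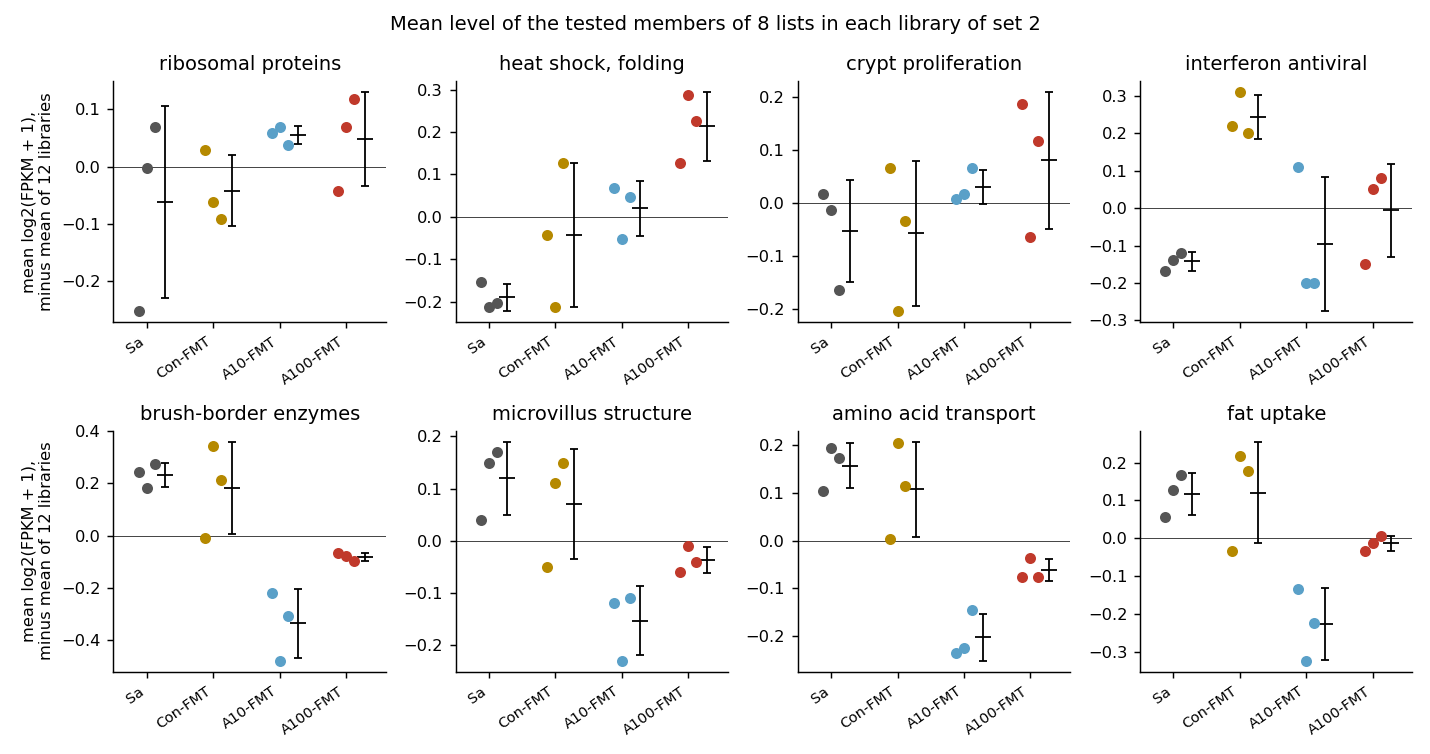
Points give the mean log2(FPKM + 1) of a list's tested members in each library, less the mean over the 12 libraries of set 2, and bars the mean and SD of each group (n = 3). Brush-border enzymes, microvillus genes, amino acid transport and fat uptake are lower in all 3 A100-FMT libraries than in any Sa library, heat shock genes are higher in all 3, and ribosomal proteins, crypt proliferation and interferon genes overlap as list means.

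By size of change, the 15 called genes with a symbol that rose most were led by Gm2446, Ifi27l2a, Gm7429 and Hsph1, and the 15 that fell most by H2-DMb1 and Gm2436. How reads shared by the near-identical Gm2446 and Gm2436 were counted is not given in the sources used here. Phgdh (gene 236539, chr3:98313171-98339969), the first enzyme of serine synthesis, was 26.30, 28.40 and 27.84 FPKM in A100-FMT and 18.79, 16.88 and 15.56 FPKM in Sa, with no overlap (0.66 ± 0.08, adjusted p = 0.0122). Nrtn, the growth factor neurturin, was 7.1 ± 0.71 against 4.13 ± 0.313 FPKM (adjusted p = 0.0274), and Jaml, an adhesion molecule of epithelial and immune contact, was 21 ± 0.156 against 12.1 ± 2.72 FPKM (adjusted p = 0.0346). The others that rose were Isg20, an interferon-induced exonuclease, Vim, the intermediate filament vimentin, Ung, which removes uracil from DNA, the histone gene H2ac24, Ahsa2, Hmgn5, Phf11a and Mosmo, each by 0.46 to 0.66 on the log2 scale. With the length and GC trend removed, Gm7429 and Phf11a were not called (adjusted p = 0.0535 and 0.0580). Beside the genes already named, those that fell most were Gda, guanine deaminase, Lpgat1, the peroxisomal carnitine transferase Crot and Slc10a5, each by 0.46 to 0.49.

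Other called genes of the lists were all lower in A100-FMT. Among them were the iron oxidase Heph, at 31.5 ± 1.73 against 42.5 ± 2.7 FPKM (-0.42 ± 0.07, adjusted p = 0.0325), and others with adjusted p of 0.0346 to 0.0498. The metabolic genes were the retinol dehydrogenase Dhrs9 (-0.30 ± 0.07), the glutathione transferase Gstm6 (-0.20 ± 0.05), the glucuronosyltransferase Ugt2b34 (-0.29 ± 0.05) and the efflux pump Abcg2 (-0.26 ± 0.06). The regulators were the transcription factors Rxra (-0.19 ± 0.04) and Maf (-0.32 ± 0.07), the ERK phosphatase Dusp6 (-0.39 ± 0.08) and the AP-1 gene Fosl2 (-0.31 ± 0.07). With the length and GC trend removed, Dhrs9, Maf and Fosl2 were not called (adjusted p = 0.0575, 0.0598 and 0.0659). Each was 1 or 2 of the tested members of its list. Among p53 targets, goblet cell and enteroendocrine genes limma called 0 of 22, 16 and 16 tested. At an unadjusted p under 0.05 were 4, 4 and 1 members, beside 2691 of the 11351 genes tested.

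Few genes changed by 2-fold or more. As a ratio of group means of FPKM + 1, 37 genes were higher and 45 lower by at least 2-fold, 21 and 28 of them without overlap (35 higher without A100-FMT replicate 2). Of those without overlap, 9 were called and 18 had a symbol. Among those with a symbol, the largest ratios were 3.21 for the haemoglobin gene Hba-a1 (7.4 against 1.62 FPKM, adjusted p = 0.14), 2.67 for Gdpd3 (adjusted p = 0.0617), 2.63 for Gm2446 (adjusted p = 0.0262), 2.52 for Ifi27l2a and 2.45 for Mxra7 (adjusted p = 0.185). The smallest were 0.0144 for Rpl26 (3.61 against 319 FPKM, adjusted p = 0.114), 0.0978 for H2-DMb1 (0.99 against 19.4 FPKM, adjusted p = 0.0346), 0.234 for Gm39701 (adjusted p = 0.0613), 0.27 for the phosphate carrier Slc34a3 (adjusted p = 0.0694) and 0.343 for Rab11b (adjusted p = 0.2). Rpl26 and H2-DMb1 had 1 Sa library far from the other 2, at 9.48 against 452.20 and 494.42 FPKM and at 6.73 against 29.11 and 22.21 FPKM. Mxra7 was at 1.45, 9.11 and 1.82 FPKM in A100-FMT and at 0.83, 1.19 and 1.25 FPKM in Sa, and its ratio was 1.26 without A100-FMT replicate 2. Gdpd3 had a ratio of 4.06 without Sa replicate 2.

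The other FMT groups of set 2 were fitted with the same libraries. Against Con-FMT, 82 genes (0.722%) were called in A100-FMT, 48 of them higher. Scaling turned this split, to 22 higher and 39 lower with quantile normalization and to 10 higher and 33 lower with trimmed-mean scaling. Leaving out single libraries took this count from 0 to 200 (0 without A100-FMT replicate 2 or Con-FMT replicate 2, 2 without A100-FMT replicate 3, 6 without Con-FMT replicate 3 and 200 without Con-FMT replicate 1). The comparisons with Sa and with Con-FMT share the A100-FMT libraries, so their values are given side by side only. Apob had changes of -0.59 against Sa and -0.43 against Con-FMT (adjusted p = 0.0462), Slc9a3 of -0.48 and -0.76 (adjusted p = 0.0269), Heph of -0.42 and -0.36 (adjusted p = 0.0463), and Atp1b1 of -0.33 and -0.24 (adjusted p = 0.0491). On the other side, Hes1 had changes of 0.46 and 0.29 (adjusted p = 0.0486), Hmgn5 of 0.50 and 0.57 (adjusted p = 0.0366) and Nrtn of 0.66 and 0.62 (adjusted p = 0.0366). List medians against Sa and Con-FMT were -0.367 and -0.294 for brush-border enzymes, 0.232 and 0.212 for ribosomal proteins and 0.355 and 0.228 for heat shock genes. The interferon-stimulated list had a median of 0.154 against Sa and -0.250 against Con-FMT, beside 0.029 and 0.043 over all genes tested. Of its 45 tested members, 5 were called lower against Con-FMT, beside 34 of the 11351 genes tested. They were Herc6, by 0.52 on the log2 scale, and, named after their values were seen, Ddx60, Parp14, Trim30a and Parp9. The interferon-inducible GTPases had medians of 0.225 and -0.414. Against A10-FMT, 2 genes were called, Pla2g2f, a secreted phospholipase named after its value was seen, and a transcript without a symbol, with 1328 genes at an unadjusted p under 0.05. Median changes from Sa in A10-FMT were -0.566 for brush-border enzymes, -0.216 for microvillus genes and 0.172 for ribosomal proteins, beside -0.367, -0.152 and 0.232 in A100-FMT. Whether the 2 groups differ in these lists was not tested.

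The same treatment contrast was also fitted in set 1, with 3 A100-FMT and 2 Sa libraries. The change differed between the sets for 3033 of 11337 genes tested in both (26.8%, limma, contrast of the contrasts over 23 libraries). List medians in sets 2 and 1 were -0.367 and 0.427 for brush-border enzymes, -0.152 and 0.144 for microvillus genes, -0.163 and 0.309 for fat uptake, and 0.232 and -0.395 for ribosomal proteins. They were 0.355 and 0.09 for heat shock genes and 0.154 and 0.655 for interferon-stimulated genes. Of 81 named and called genes, 80 could be tested in both sets. Of these 69 had the opposite sign in set 1, among them Slc9a3, Clca4b, Rplp0, Dusp6 and Heph, while Hmgn5, Ahsa2 and Ifi27l2a did not. The genes were chosen as called in set 2 and the share over all genes is not given here, so nothing is read from this count. For 1 of the 2 Sa libraries of set 1 the title and the description name different columns of the table. With the column that the description names, 2112 genes differed between the sets, and with weights for library quality 0 did (limma, adjusted p).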

How the data were processed

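Total RNA of the small intestine was sequenced on an Illumina HiSeq. Whether each library came from a separate mouse is not given in the sources used here. The authors turned read numbers per gene into length-scaled values, with mm10 as the build. The deposited table holds FPKM values with 2 decimals in 24 columns, of which 23 were used, 1 per library, and the other only as an alternative for 1 Sa library of set 1; the aligner and its version are not given in the sources used here. The number of reads is unknown, since the steps of single reads could be seen in only 7 genes, so no counting intervals are given. Columns were matched to samples by title.

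Values were taken as log2(FPKM + 1), which understates the fold of low genes. The 12 libraries of set 2 were fitted, for genes averaging 1 FPKM or more, with limma 3.58.1 in R 4.3.3 (1 mean per group, empirical Bayes moderation with trend, Benjamini-Hochberg over 11351 genes, threshold 0.05). Other steps used Python 3.11.15, pandas 2.3.3 and matplotlib 3.10.9. Genes named were the 15 largest and 15 smallest called changes with a symbol, for each list described the 3 most abundant, the 3 of smallest p and every called member, the proteins measured in the study, and the 5 largest and 5 smallest ratios of at least 2-fold without overlap among genes with a symbol. Some genes that this rule names are not reported here. Any other gene named was chosen after its values were seen. The groups, lists and tests were chosen with earlier results of these data known. Names and positions are from RefSeq (GRCm38.p6), lengths and GC content from GENCODE M21. Alternatives were the pseudocount, the filter, scaling, library weights, the libraries fitted, a replicate block and leaving out each library, and, chosen after seeing the data, removal of the trend with length and GC content.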

Additional observations from a re-analysis of the deposited data

Results flagged for a closer look

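The change from Sa to A100-FMT differed between the sets for 68 of the 80 named and called genes that could be tested in both (limma, contrast of the contrasts, adjusted p under 0.05). Over all genes the share was 26.8%, but the named genes had been chosen as called in set 2, which is part of this contrast, so nothing is read from their larger share. The values are the log2 change in set 2 minus that in set 1. For proteins of the large ribosomal subunit the difference was 0.61 for Rpl12, 0.61 for Rpl13, 0.40 for Rpl17, 0.58 for Rpl27a, 0.80 for Rpl32, 0.82 for Rpl35a, 0.52 for Rpl6, 0.28 for Rpl7, 0.73 for Rpl8, 0.69 for Rplp0 and 0.83 for Rplp1. For those of the small subunit it was 0.77 for Rps10, 0.71 for Rps15, 0.64 for Rps15a, 0.73 for Rps16, 0.56 for Rps20, 0.68 for Rps21, 0.66 for Rps23, 0.33 for Rps24, 0.74 for Rps3, 0.34 for Rps3a1 and 0.49 for Rps4x. Among brush-border and microvillus genes it was -0.54 for Anpep, -1.54 for Asah2, -1.37 for Dpp4, -0.92 for Enpep, -0.72 for Xpnpep2, -0.72 for Cobl, -0.70 for Eps8, -1.05 for Pls1 and -0.37 for Vil1. Genes of fat handling gave -1.89 for Apob, -0.72 for Mttp, -0.41 for Sar1b, -1.0 for Crot and -1.11 for Lpgat1. Transport genes gave -0.67 for Slc43a2, -0.46 for Slc16a10, -0.50 for Slc7a9, -0.31 for Slc7a7, -1.41 for Slc34a2, -1.01 for Slc9a3, -1.19 for Slc10a5, -0.49 for Atp1b1, -0.26 for Gucy2c, -1.35 for Clca4b, -0.55 for Abcg2 and -1.08 for Heph. Other genes with a higher change in set 2 gave 1.98 for Gm2446, 3.44 for Gm7429, 0.59 for H2ac24, 0.66 for Hes1, 0.69 for Jaml, 0.70 for Mcm2, 0.55 for Ndufs7, 1.07 for Nrtn, 0.99 for Phgdh, 1.04 for Ung, 0.60 for Uqcrq and 0.75 for Vim. Other genes with a lower change in set 2 gave -0.55 for Cdh17, -0.31 for Cldn12, -0.44 for Clrn3, -1.31 for Dusp6, -0.50 for Fosl2, -1.41 for Gda, -0.92 for Maf and -0.75 for Ugt2b34. With the column that the description names for 1 Sa library of set 1, 64 of the genes differed, and with weights for library quality 0 did (limma). Set 1 has 2 Sa libraries, and the sets share no library.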

How the results depend on the processing

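Genes called between A100-FMT and Sa numbered 399 of 11351. They numbered 1056 with weights for library quality, 122 with every gene above 0 tested, 9 with the 6 libraries fitted alone, 4 with all 23, and from 1 to 472 with 1 library left out. Whether the replicate numbers pair the libraries is not given in the sources used here. Same-numbered deviations from the group means correlated at -0.221, -0.139 and 0.055 between A100-FMT and Sa. They correlated at 0.327, 0.195 and 0.080 between A100-FMT and Con-FMT and at -0.282, 0.053 and 0.118 between A100-FMT and A10-FMT. No comparison had every pair over 0.1, but with 3 libraries a group these values cannot decide on a pairing. With the replicate block 27 genes were called, and 54 with the replicate block and the length and GC trend taken out. Against Con-FMT, 82 became 215 at a mean of at least 5 FPKM, 43 with trimmed-mean scaling, 219 with weights, 0 with the replicate block (limma, 2241 at an unadjusted p under 0.05) and 0 to 200 with 1 library left out. Against A10-FMT, 2 became 1 at a mean of at least 5 FPKM, 4 with the block and 0 to 3 with 1 library left out. The difference between sets, 3033, became 0 with weights. Genes higher by 2-fold without overlap, 21, became 65 at a ratio of 1.5 and 24 to 35 with 1 library left out.

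List medians were -0.099 for tight junctions with trimmed-mean scaling, and -0.417 for brush-border enzymes and -0.209 for fat uptake with quantile normalization. With 1 library left out they ran from -0.403 to -0.337 for brush-border enzymes, -0.185 to -0.121 for fat uptake, -0.004 to 0.151 for stem cell and Notch genes, -0.283 to -0.198 for amino acid transport and -0.174 to -0.092 for ion transport.

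Of 81 called genes named, 15 were no longer called with trimmed-mean scaling, 25 with quantile normalization and 27 with the length and GC trend taken out. Those no longer called were 62 with every gene above 0 tested, 75 with the block, 77 with the 6 libraries alone and 22 to 81 with 1 library left out. None of the 81 turned sign, but they were chosen as called in the main fit. The uncalled ones that did were, with quantile normalization, Atp5b (-0.023), Cox6a1 (-0.030), Cox4i1 (-0.124), Cldn7 (-0.031) and Gata4 (-0.021); with trimmed-mean scaling, Gata4 (-0.017); with weights, Lgals3bp (0.007), Gata4 (-0.024), Slc12a2 (0.019) and Gbp6 (-0.015); and with the length and GC trend taken out, with or without the block, Atp5b (-0.004), Cox6a1 (-0.002), Cox4i1 (-0.042), Cldn3 (-0.014), Gata4 (-0.044) and Slc12a2 (0.012). The cause was not tested. With 1 library left out, those that turned ran, for Actb from -0.028 to 0.033, for Cox4i1 from -0.021 to 0.099, for Cox6a1 from -0.006 to 0.148, for Gata4 from -0.053 to 0.048, for Klf7 from -0.122 to 0.028, for Lgals3bp from -0.049 to 0.038 and for Slc12a2 from -0.073 to 0.048. The number of reads per library is unknown, so the precision of low values could not be set, and 3 libraries a group from 1 inoculum limit every comparison.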

Other observations

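The genes given here, as values only, were chosen after their values were seen. Some varied widely between libraries of the same group. Rpl26, a ribosomal protein gene of the large subunit (chr11:68901566-68904534), was at 3.09, 3.84 and 3.90 FPKM in A100-FMT and at 3.39, 3.89 and 4.52 FPKM in A10-FMT. In Con-FMT it was at 496.76, 269.18 and 4.50 FPKM and in Sa at 9.48, 452.20 and 494.42 FPKM, so that libraries of the same group stood at either level. Rab11b (chr17:33742484-33760486), a GTPase of recycling endosomes, H2-DMb1 (chr17:34153191-34160229), which helps to load MHC class II, and H2-Ea (chr17:34341952-34344645), a class II chain, lie near one another. Over the 12 libraries of set 2 these genes ranged from 2.11 to 39.56, from 0.85 to 29.11 and from 0.76 to 81.60 FPKM. The class II gene H2-Ab1 (chr17:34263227-34269418), in the same stretch, ranged from 68.54 to 116.36 FPKM. Gm2436 (chr12:55141072-55154918) and Gm2446 (chr12:55216136-55229982) are neighbours that moved in opposite directions, at 0.42, 0.38 and 0.19 against 2.09, 2.25 and 2.44 FPKM and at 2.27, 1.84 and 1.74 against 0.12, 0.15 and 0.10 FPKM in A100-FMT and Sa. How reads shared by the near-identical Gm2436 and Gm2446 were counted is not given in the sources used here. The mice were of an outbred stock, and the part of genotype in the values given here was not tested.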
